A study of Mus musculus with 14 samples.

Results

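Transcripts of the chemokine ligand family were followed while mouse fibroblasts were turned by chemicals into cells of retinal pigment epithelium, the pigmented layer that serves the photoreceptors. The family was taken as every symbol of the deposited mouse table that begins with Ccl, Cxcl, Cx3cl or Xcl and goes on with a number and at most 1 letter. This gave 39 genes of 55291 symbols: 24 CC ligands, 13 CXC ligands, Cx3cl1 and Xcl1. Of these, 26 had enough counts for the test and 13 did not, 5 of which had 0 counts in every library. The platelet chemokines Ppbp and Pf4, whose symbols do not follow the pattern, were not counted as members.

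Reprogrammed cells were collected on day 7 (D7, n = 3), day 18 (D18, n = 3) and day 32 (D32, n = 3), beside untreated primary retinal pigment epithelium (P-RPE, n = 2) and the starting fibroblasts (MEF, n = 3), 14 libraries in all. The labels give genotype C57BL/6J for every group and name embryos of E13.5 as the source even of P-RPE. They list the first medium as the treatment of the MEF libraries too, and these 2 entries were not used. D7 and D18 cells were in a first medium with bFGF, CHIR-99021 (a GSK3 inhibitor), LDN193189 (a BMP receptor inhibitor), A 83-01 (a TGF-beta receptor inhibitor), Hh-Ag1.5 (a Hedgehog pathway agonist), RG108 (a DNA methyltransferase inhibitor), BMS-345541 (an inhibitor of the kinase IKK) and CKI-7 (a casein kinase inhibitor). D32 cells, called ciRPE, were in a second medium with Y27632 (a ROCK inhibitor), nicotinamide, retinoic acid and activin A. Treated cells were scraped where induction looked successful, so these groups are selected cells. The labels do not say whether replicates came from separate cultures or animals, and p-values therefore measure the spread between these libraries, which may be technical. In bulk RNA, fewer cells of a type and less RNA per cell cannot be told apart.

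Chemokines are small secreted proteins that bind G protein-coupled receptors and guide moving cells along gradients held on extracellular glycans. Inflammatory members are switched on by cytokines through the transcription factor NF-kappaB, which the kinase IKK releases, and by interferons, while homeostatic members such as Cxcl12 are made steadily by stromal cells. Retinal pigment epithelium is known, in human cultures among others, to secrete several of them, CCL2 included, and to take part in keeping immune cells in check.

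Promoter sequences are shown for 4 CXC genes of chromosome 5, because 3 of them, from 1 cluster, hold the same run of bases and yet differed in level, and the fourth holds matches to several motifs. The RefSeq promoter table (GRCm38.p6) has an entry for 28 of the 39 members, 19 of the 26 tested. The tested members without an entry are Cxcl16, Ccl4, Ccl11, Cxcl5, Ccl5, Ccl7 and Ccl2. Each sequence below is the 250 bases before the annotated start, read 5′ to 3′ on the gene's strand, with capitals for any match on either strand to the NF-kappaB consensus, to the interferon-stimulated element (GAAA, any 2 bases, GAAA) or to the AP-1 site TGANTCA. Their places are chr5:90890995-90891244 on the plus strand for Cxcl1, chr5:90903649-90903898 on the plus strand for Cxcl2, chr5:90785851-90786100 on the plus strand for Cxcl3 and chr5:92348890-92349139 on the minus strand for Cxcl10.
Cxcl1: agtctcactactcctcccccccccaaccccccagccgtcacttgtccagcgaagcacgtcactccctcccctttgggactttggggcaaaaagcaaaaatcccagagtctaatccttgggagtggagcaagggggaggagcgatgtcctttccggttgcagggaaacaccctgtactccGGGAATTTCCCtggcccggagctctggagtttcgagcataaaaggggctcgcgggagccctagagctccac
Cxcl2: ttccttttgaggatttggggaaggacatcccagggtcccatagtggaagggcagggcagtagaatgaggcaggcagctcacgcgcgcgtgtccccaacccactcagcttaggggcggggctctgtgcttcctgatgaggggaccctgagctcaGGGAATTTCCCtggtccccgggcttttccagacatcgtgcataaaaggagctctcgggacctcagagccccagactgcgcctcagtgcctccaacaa
Cxcl3: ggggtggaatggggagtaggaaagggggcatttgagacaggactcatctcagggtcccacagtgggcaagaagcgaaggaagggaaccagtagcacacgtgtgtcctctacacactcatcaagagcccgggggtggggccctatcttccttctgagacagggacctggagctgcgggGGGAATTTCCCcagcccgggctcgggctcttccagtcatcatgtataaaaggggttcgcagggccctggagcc
Cxcl10: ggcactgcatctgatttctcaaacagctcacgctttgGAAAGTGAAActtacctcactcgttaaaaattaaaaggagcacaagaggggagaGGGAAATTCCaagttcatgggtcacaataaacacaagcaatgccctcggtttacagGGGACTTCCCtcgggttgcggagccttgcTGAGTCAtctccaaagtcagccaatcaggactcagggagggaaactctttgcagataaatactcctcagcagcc
The capitals of Cxcl1, Cxcl2 and Cxcl3 are the same run, GGGAATTTCCC, which holds 2 overlapping matches to the NF-kappaB consensus. It begins 71, 97 and 73 bases before the start of Cxcl1, Cxcl2 and Cxcl3. The Cxcl10 promoter holds GAAAGTGAAA, then the NF-kappaB matches GGGAAATTCC and GGGACTTCCC, then TGAGTCA. Over windows that also take in the 50 bases after the start, the NF-kappaB consensus was in 7 of 34 member promoters (20.6%) and in 1480 of all 32851 promoters (4.51%). The interferon element was in 3 of 34 member promoters (8.82%) and in 3.44% of all, and TGANTCA was in 7 of 34 (20.6%) and in 7.81% of all. Some genes have several entries, and by gene the 3 motifs were in 7, 3 and 6 of 28. Related genes, such as Cxcl1, Cxcl2 and Cxcl3 or Ccl27a and Ccl27b, were counted separately. These are letters that match, not shown sites of binding.

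Levels are CPM, each count set against its library's size after scaling by edgeR's trimmed mean of M values. Differences are log2 changes from 1 edgeR quasi-likelihood model of all libraries, and a change passed the test when its Benjamini-Hochberg adjusted p was under 0.05. Library totals were 32352405 to 41390196 counts. The marker genes of retinal pigment epithelium summed to 4039 to 7803 CPM in D32, 53451 to 59991 in P-RPE and 0.284 to 0.387 in MEF. Those of fibroblasts summed to 10141 to 10605 CPM in MEF, 6260 to 6746 at D7 and 1891 to 7606 at D18. They summed to 7217 to 11122 CPM at D32 and to 1206 and 1477 CPM in P-RPE. One library stood apart within its group: D18 replicate 3 was the lowest D18 library for 12 of the 13 ligands with a group mean of at least 10 CPM, at a median of 0.396 of the mean of the other D18 libraries. Its summed fibroblast markers were 1891 CPM, against 7363 and 7606 CPM in D18 replicates 1 and 2. Values without it are given where they change the call of a member.

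The 39 ligands together came to between 489.9 and 521.6 CPM in the MEF libraries and between 569.7 and 615.4 CPM in the D7 libraries. In D18 libraries they came to between 676.5 and 1563 CPM, in D32 libraries to between 1178 and 2023 CPM, and in the P-RPE libraries to 496.1 and 522.0 CPM. The share of Cxcl12 in that sum lay between 60.0% and 61.0% in MEF, between 2.31% and 2.99% at D7, between 45.7% and 57.9% at D18, between 68.2% and 71.9% at D32 and between 48.1% and 51.2% in P-RPE. Ccl2, a ligand that draws monocytes, made up 48.5% to 51.4% at D7 and 0.852% to 8.76% in the other groups. By its share of the sum Ccl2 led at D7, and Cxcl12, a gene with long exons, led in the other groups. Levels were also set per kilobase of exon, over the joined exons of all annotated transcripts of a gene. This length, 8176 bases for Cxcl12 and 1138 for Ccl2, may exceed that of the transcripts made, so the order is approximate. By this measure D7 was led by Ccl2 (261 ± 17.4 CPM per kb) and Ccl7 (35.1 ± 5.29). D32 was led by Cxcl12 (137 ± 36.2 CPM per kb) and Cxcl5 (110 ± 77.5), which overlap within their SD. D18 was led by Cxcl14 (109 ± 40.6 CPM per kb) and Cxcl12 (76.9 ± 34.7), which also overlap within their SD. MEF was led by Cxcl14 (44.7 ± 1.96 CPM per kb), Ccl2 (38.1 ± 0.934) and Cxcl12 (37.2 ± 1.5), and of these Ccl2 and Cxcl12 overlap within their SD. P-RPE was led by Cxcl12 (30.9 ± 0.258 CPM per kb, n = 2), with Cx3cl1 (20.9 ± 1.11) and Cxcl1 (20.7 ± 1.60) next and not apart beyond their SD.

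At D7 against MEF, 15 of the 26 tested members were called higher and 5 lower, where 28.5% and 26.5% of all 20562 genes tested were and 55% were called in either direction. The members' median log2 change was 2.36, and that of all genes was 0.04. With single libraries left out, 13 to 15 members were called higher. Among the 15 were Cxcl9 and Cxcl13, with 0 counts in MEF and 13 and 22 counts over the D7 libraries. At D18 against D7, 7 members were called higher and 6 lower, where 29.2% and 27.4% of all genes were (56.6% in either direction), with medians of -0.24 and 0.00. Scaled by library totals alone, which shifts the median of all genes by -0.19, the split was 6 higher and 8 lower, and without D18 replicate 1 the number higher was 4. At D32 against D18, 10 were called higher and 6 lower, where 29.9% and 26.1% of all genes were (56% in either direction), with medians of 0.43 and 0.07, and the split was 10 and 4 with library totals alone; without D18 replicate 1 or D32 replicate 2, 3 were called lower, and without D18 replicate 3, 9. At D32 against MEF, 19 were called higher and 2 lower, where 35.6% and 24.6% of all genes were (60.2% in either direction), with medians of 2.26 and 0.26. With single libraries left out, 15 to 19 were called higher. Among the 19 were Cxcl9, Cxcl13 and Ccl22, with 0 counts in MEF and 21, 38 and 24 counts over the D32 libraries. At P-RPE against MEF, 15 were called higher and 5 lower, where 39.3% and 31.4% of all genes were (70.7% in either direction), with medians of 2.75 and 0.18. Without MEF replicate 2 or P-RPE replicate 2, 3 were called lower. These comparisons share libraries and are not independent of each other. Library totals alone shifted the median of all genes by 0.32 for D7 against MEF, which left the split at 15 and 5.

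**Figure D1:**
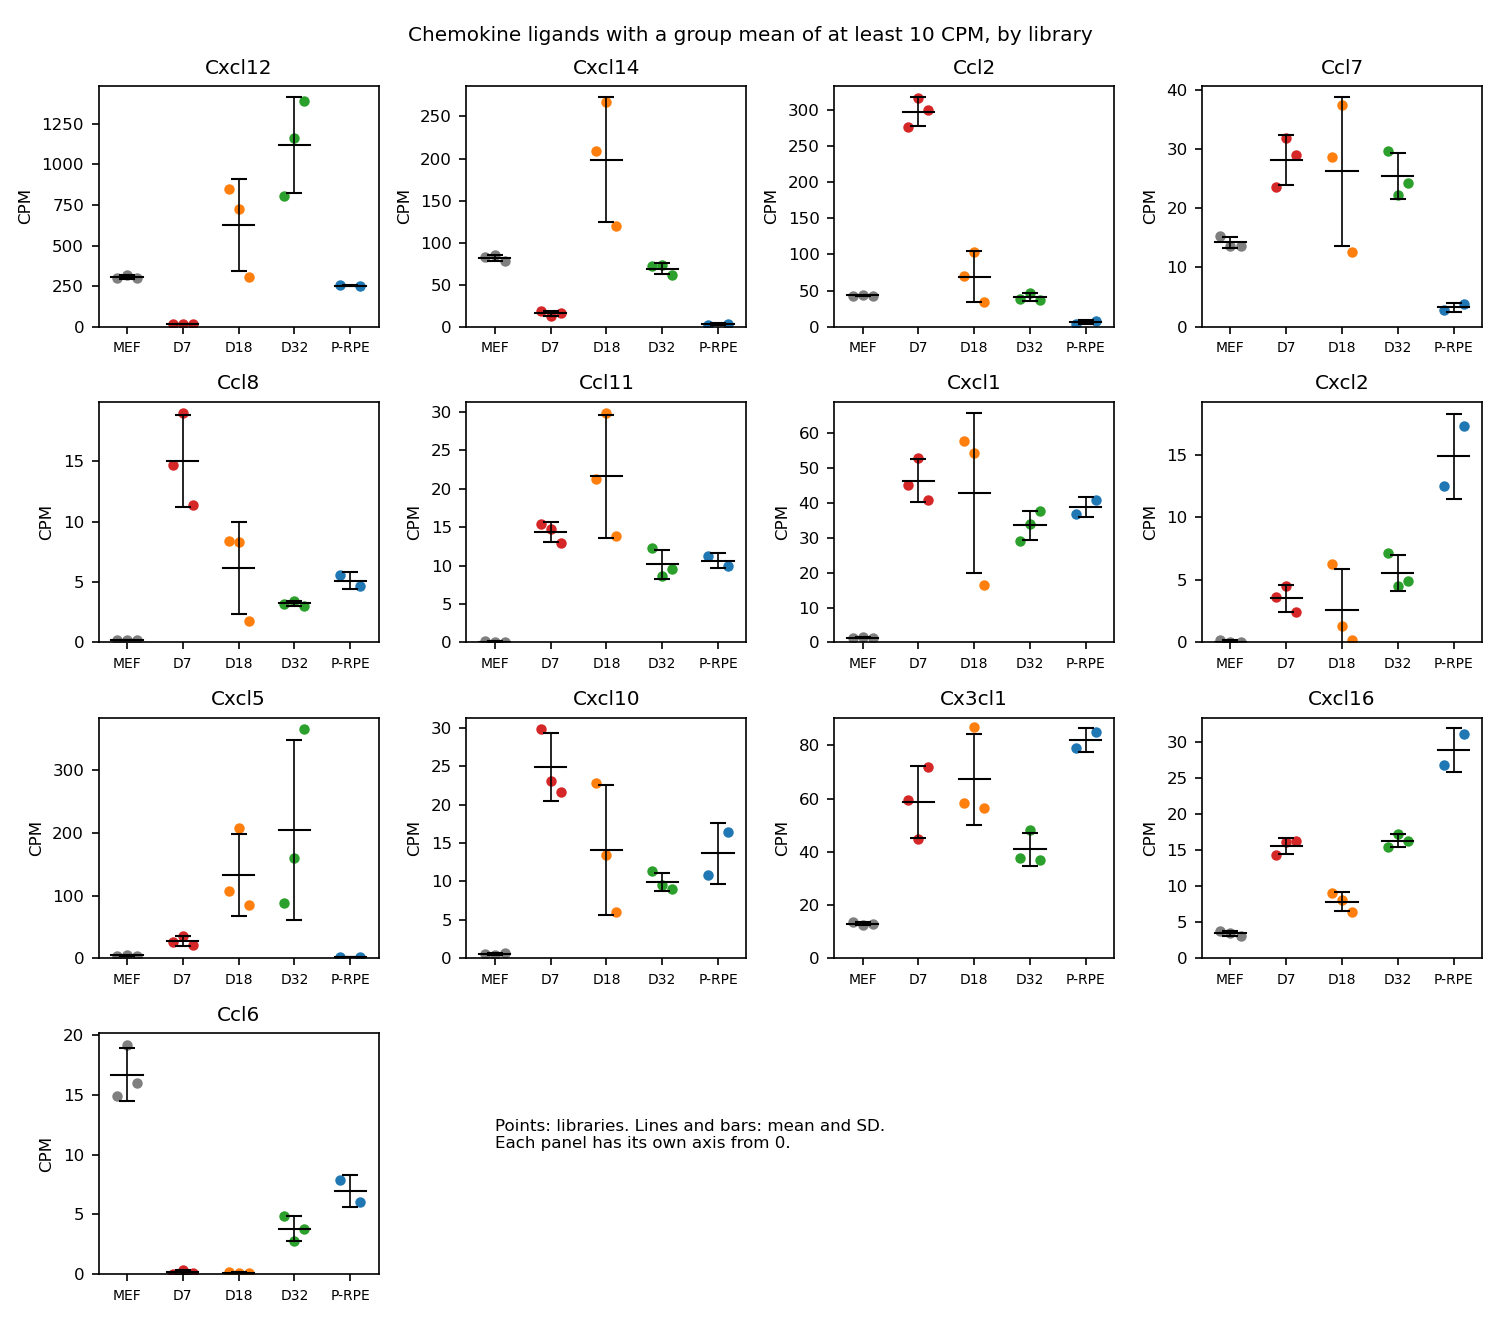
Levels (CPM, linear axes from 0, 1 panel per gene) of the 13 ligands with a group mean of at least 10 CPM in MEF, D7, D18, D32 and P-RPE; points are libraries, lines and bars are mean and SD. Cxcl12 and Cxcl14 are lowest of the time course at D7, where Ccl2 is highest.

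Cxcl12, the homeostatic ligand that retains and guides progenitor cells, lies on chromosome 6 (GRCm38, 117168535 to 117181367, plus strand). It had 297, 318 and 297 CPM in MEF, 17.1, 16.1 and 13.5 CPM at D7, 849, 728 and 309 CPM at D18, 803, 1160 and 1390 CPM at D32, and 254 and 251 CPM in P-RPE. All D7 libraries were lower than every other library, and all D32 libraries were higher than those of MEF and P-RPE. The transcript fell at D7 against MEF by 4.29 on the log2 scale (SE 0.32, adjusted p = 9.19e-08 by edgeR). It rose at D18 against D7 by 5.34 (SE 0.34, adjusted p = 2.04e-08 by edgeR). At D32 it was higher than in MEF by 1.88 (SE 0.29, adjusted p = 7.70e-05 by edgeR) and higher than in P-RPE by 2.15 (SE 0.34, adjusted p = 1.28e-04 by edgeR). At D32 against D18 the change was 0.83 (SE 0.28, adjusted p = 0.0226 by edgeR). That call was lost without D32 replicate 2 (0.80, adjusted p = 0.0647 by edgeR) or D32 replicate 3 (0.64, adjusted p = 0.0965 by edgeR), with no filter on low counts (0.82, adjusted p = 0.0949 by edgeR) and when these groups were fitted alone (0.80, adjusted p = 0.0959 by edgeR). The D32 and D18 libraries overlapped. P-RPE against MEF did not pass the test (-0.27, SE 0.32). That change passed when these groups were fitted alone (-0.31, adjusted p = 0.0013 by edgeR). Summed mural cell markers fell with Cxcl12 from MEF (5174 to 5445 CPM) to D7 (223 to 366 CPM). They did not rise with it at D18, where they lay between 169 and 209 CPM. The D32 sums lay between 3250 and 5719 CPM, and those of P-RPE were 1138 and 1216 CPM. Most of the MEF and D32 sums was Acta2, with means of 4590 and 3410 CPM. Cspg4, another of these markers, averaged 449 CPM in MEF and 65.0 CPM at D32. Summed astrocyte markers rose at D7, from at most 17.2 CPM in MEF to at least 922 CPM, and were highest at D18 (23478 to 34887 CPM). The part of these cells in the Cxcl12 result was not tested.

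The receptors of Cxcl12 followed different courses. Cxcr4, its signalling receptor, had 1.34, 2.16 and 1.02 CPM in MEF, 50.5, 48.9 and 36.5 CPM at D7, 23.5, 30.4 and 59.6 CPM at D18, 13.5, 10.3 and 7.49 CPM at D32, and 27.1 and 29.5 CPM in P-RPE. It was lowest in MEF and highest at D7 and in 1 D18 library, the same D18 replicate 3 in which most ligands were lowest. It rose at D7 against MEF by 4.90 (SE 0.39, adjusted p = 1.76e-07 by edgeR), fell at D32 against D18 by 1.86 (SE 0.33, adjusted p = 2.84e-04 by edgeR), and was lower in D32 than in P-RPE by 1.44 (SE 0.35, adjusted p = 0.0036 by edgeR). D18 against D7 did not pass the test (-0.26, adjusted p = 0.506 by edgeR), and passed without D18 replicate 3 (-0.75, adjusted p = 0.0234 by edgeR). Ackr3, the receptor that takes up Cxcl12 without G protein signalling, had 90.4, 102 and 97.7 CPM in MEF, 13.6, 11.7 and 8.36 CPM at D7, 111, 148 and 97.7 CPM at D18, 82.5, 133 and 78.8 CPM at D32, and 110 and 119 CPM in P-RPE. Its D7 libraries lay below all others, and of the other groups only MEF and P-RPE did not overlap. Ackr3 fell at D7 against MEF by 3.11 (SE 0.23, adjusted p = 5.10e-08 by edgeR) and rose at D18 against D7 by 3.41 (SE 0.23, adjusted p = 2.61e-08 by edgeR).

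**Figure D2:**
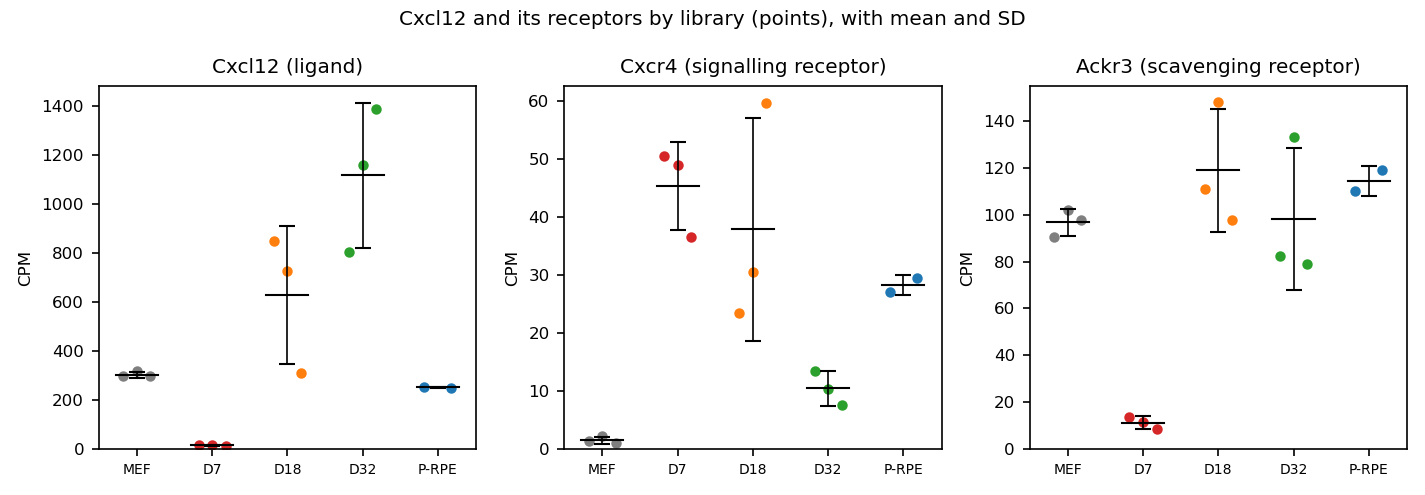
Cxcl12, Cxcr4 and Ackr3 in CPM (linear axes from 0) by group; points are libraries, lines and bars are mean and SD. At D7 Cxcl12 (13.5 to 17.1 CPM) and Ackr3 (8.36 to 13.6 CPM) are at their lowest and Cxcr4 (36.5 to 50.5 CPM) lies above all MEF libraries.

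Cxcl14, a ligand of epithelia and stroma on chromosome 13 (56288643 to 56296551, minus strand), had 82.6, 84.8 and 77.8 CPM in MEF, 19.1, 12.4 and 16.1 CPM at D7, 209, 267 and 120 CPM at D18, 72.0, 73.7 and 61.1 CPM at D32, and 1.96 and 3.59 CPM in P-RPE. The groups did not overlap in any pair. It fell at D7 against MEF by 2.36 (SE 0.26, adjusted p = 3.89e-06 by edgeR), rose at D18 against D7 by 3.65 (SE 0.27, adjusted p = 9.99e-08 by edgeR) and fell at D32 against D18 by 1.53 (SE 0.25, adjusted p = 1.50e-04 by edgeR). D32 against MEF did not pass the test (-0.25, SE 0.25). That change passed when these groups were fitted alone (-0.32, adjusted p = 0.0214 by edgeR). D32 was above P-RPE by 4.63 (SE 0.36, adjusted p = 1.71e-07 by edgeR), and P-RPE was below MEF by 4.88 (SE 0.36, adjusted p = 3.17e-08 by edgeR). Cxcl13, the ligand that organises B cell follicles, reached 1 CPM in the D18 mean alone, with 3.09 CPM in replicate 1 and 0.907 and 0.684 CPM in the others. Its calls at D7 against MEF (0 counts in MEF), D18 against D7 and D32 against D18 were each lost without 1 library, D18 replicate 1 for the last 2 (2.11, adjusted p = 0.0742, and -1.27, adjusted p = 0.255 by edgeR).

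Ccl2, Ccl7, Ccl11, Ccl12 and Ccl8 are the monocyte chemoattractants and eotaxin, and lie in this order on chromosome 11 between 82035571 and 82116799. All 5 rose at D7 against MEF, and they parted later. Ccl2 had 42.5, 44.5 and 42.9 CPM in MEF, 276, 316 and 300 CPM at D7, 69.8, 104 and 34.3 CPM at D18, 38.1, 47.0 and 36.7 CPM at D32, and 4.23 and 7.83 CPM in P-RPE. All D7 libraries were above, and both P-RPE libraries below, every other library, while D32 overlapped MEF. Ccl2 rose at D7 against MEF by 2.78 (SE 0.32, adjusted p = 7.15e-06 by edgeR) and fell at D18 against D7 by 2.10 (SE 0.31, adjusted p = 6.59e-05 by edgeR). It was higher in D32 than in P-RPE by 2.75 (SE 0.39, adjusted p = 5.53e-05 by edgeR) and lower in P-RPE than in MEF by 2.84 (SE 0.39, adjusted p = 2.07e-05 by edgeR). D32 against MEF did not pass the test (-0.09, SE 0.30). The call at D32 against D18 (-0.77, SE 0.30, adjusted p = 0.0431 by edgeR) was lost without D18 replicate 1 or 2 or without any 1 of the D32 libraries, at log2 changes of -0.39 (without D18 replicate 2) to -0.89 (without D32 replicate 2).

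Ccl7, a close relative of Ccl2, had 15.3, 13.7 and 13.7 CPM in MEF, 23.5, 31.9 and 28.9 CPM at D7, 28.7, 37.4 and 12.6 CPM at D18, 29.7, 22.2 and 24.2 CPM at D32, and 2.74 and 3.81 CPM in P-RPE. D7, D18 and D32 overlapped and P-RPE lay below all others. At D7 it was above MEF by 0.98 (SE 0.29, adjusted p = 0.00933 by edgeR) and was higher in D32 than in P-RPE by 2.95 (SE 0.37, adjusted p = 1.24e-05 by edgeR). The call at D32 against MEF (0.84, SE 0.29, adjusted p = 0.0209 by edgeR) was lost without MEF replicate 2 or 3 or D32 replicate 1, at 0.71 to 0.81. P-RPE was below MEF by 2.12 (SE 0.36, adjusted p = 1.08e-04 by edgeR), so Ccl2 and Ccl7 were the members of this cluster called lower in P-RPE than in MEF.

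Ccl11, eotaxin, which attracts eosinophils, had 0.183, 0 and 0 CPM in MEF, 15.4, 14.7 and 12.9 CPM at D7, 21.2, 29.8 and 13.8 CPM at D18, 12.3, 8.60 and 9.60 CPM at D32, and 11.3 and 10.00 CPM in P-RPE. MEF was near 0, and the 4 other groups lay within 8.60 to 29.8 CPM. Against MEF it rose at D7 by 7.87 (SE 0.55, adjusted p = 2.28e-08 by edgeR), and was also higher than MEF in D32 (7.38) and in P-RPE (7.45). All MEF counts were in replicate 1. Without it Ccl11 was at least 340-fold higher at D7, 243-fold higher at D32 and 253-fold higher in P-RPE than in MEF, against a floor of 3 counts over the remaining MEF libraries. Without MEF replicate 2 the D32 and P-RPE changes were 6.77 and 6.85. It fell at D32 against D18 by 1.09 (SE 0.31, adjusted p = 0.00888 by edgeR), and D32 against P-RPE did not pass the test (-0.06, SE 0.35). D18 against D7 did not pass (0.59, adjusted p = 0.119 by edgeR), and passed without D18 replicate 3 (0.83, adjusted p = 0.0268 by edgeR).

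Ccl8 had 0.183, 0.166 and 0.170 CPM in MEF, 14.7, 19.0 and 11.4 CPM at D7, 8.43, 8.30 and 1.77 CPM at D18, 3.2, 3.43 and 3.05 CPM at D32, and 5.60 and 4.66 CPM in P-RPE. D7 lay above all other groups and MEF below them. It rose at D7 against MEF by 6.42 (SE 0.56, adjusted p = 2.41e-07 by edgeR) and fell at D18 against D7 by 1.29 (SE 0.39, adjusted p = 0.0119 by edgeR), a call lost when these groups were fitted alone (adjusted p = 0.0882 by edgeR). D32 against D18 did not pass (-0.93, adjusted p = 0.0616 by edgeR), and passed without D18 replicate 3 (-1.37, adjusted p = 8.83e-05 by edgeR). Ccl12, a mouse ligand of Ccr2, averaged 5.72 CPM at D7 and 0.0964 CPM in MEF, a rise of 5.85 (SE 0.48, adjusted p = 8.61e-08 by edgeR). It fell at D18 against D7 by 7.15 (SE 0.54, adjusted p = 4.12e-08 by edgeR), to 0.0368 CPM on average at D18. It rose at D32 against D18 by 3.57 (SE 0.61, adjusted p = 1.42e-04 by edgeR) and was lower in D32 (0.477 CPM) than in P-RPE (2.34 CPM) by 2.29 (SE 0.41, adjusted p = 2.51e-04 by edgeR). Of the eotaxin-like Ccl24 and Ccl26, the first had at most 0.112 CPM in any library and the second had 0 counts.

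A second run of CC genes on chromosome 11, Ccl5, Ccl9, Ccl6, Ccl3 and Ccl4 between 83525778 and 83664683, holds ligands that leukocytes make in quantity. They moved apart at D7, where Ccl5 rose and Ccl6, Ccl9 and Ccl3 fell, and all 5 rose at D32 against D18. Ccl6 had 14.9, 19.2 and 16 CPM in MEF, 0, 0.363 and 0.0471 CPM at D7, 0.169, 0.0534 and 0.114 CPM at D18, 4.86, 2.74 and 3.76 CPM at D32, and 7.89 and 6.00 CPM in P-RPE. MEF lay above every other group, and D7 and D18 were near 0. Ccl6 fell at D7 against MEF by 6.83 (SE 0.57, adjusted p = 1.56e-07 by edgeR). Without D7 replicate 2 the D7 libraries held 2 counts, and MEF was higher by a ratio of 664 (exact 95% counting interval 184 to 5490). It rose at D32 against D18 by 5.05 (SE 0.60, adjusted p = 5.58e-06 by edgeR) and was still lower in D32 than in MEF by 2.14 (SE 0.41, adjusted p = 4.49e-04 by edgeR). The lower call in P-RPE against MEF (-1.27, adjusted p = 0.0235 by edgeR) was lost without MEF replicate 2 (-1.16) or P-RPE replicate 2 (-1.09).

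Ccl9 averaged 0.235 CPM at D7 and 7.50 CPM in MEF, a fall of 4.95 on the log2 scale (SE 0.54, adjusted p = 1.88e-06 by edgeR). Its means were 0.945 CPM at D18, 2.76 CPM at D32 and 5.65 CPM in P-RPE. The rise at D18 against D7 (1.96, adjusted p = 0.00705 by edgeR) was lost without D18 replicate 1 (1.18, adjusted p = 0.068 by edgeR), and that at D32 against D18 (1.54, adjusted p = 0.0106 by edgeR) without D32 replicate 2 (1.25, adjusted p = 0.0513 by edgeR); without D18 replicate 1 it was 2.32. Ccl3 averaged 0.219 CPM at D7 and 1.21 CPM in MEF, a fall of 2.42 (SE 0.59, adjusted p = 0.00289 by edgeR; by 3.57 without D7 replicate 2). It had 4.81, 3.48 and 2.11 CPM at D32 and 0, 0 and 0.143 CPM at D18, a rise of 6.13 (SE 0.74, adjusted p = 5.58e-06 by edgeR). All D18 counts were in replicate 3, and without it Ccl3 was at least 84.9-fold higher at D32; without D18 replicate 2 the log2 change was 5.52. D18 against D7 did not pass (adjusted p = 0.055 by edgeR), and passed without D18 replicate 3 (adjusted p = 0.00504 by edgeR), which leaves 0 counts at D18. Ccl4 had 184 counts over the D32 libraries and 2 over the D18 libraries, a ratio of 85.7 with an exact 95% interval of 23.4 to 713 for counting error alone and with both counts in D18 replicate 2, called at adjusted p = 2.17e-05 by edgeR. At D7 against MEF Ccl4 did not pass the test (-1.75, adjusted p = 0.0791 by edgeR).

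Ccl5, a T cell and monocyte attractant that interferons and NF-kappaB both induce, went the other way at the first step. It averaged 9.33 CPM at D7 and 0.172 CPM in MEF, a rise of 5.73 (SE 0.49, adjusted p = 1.31e-07 by edgeR). It fell at D18 against D7 by 5.17 (SE 0.46, adjusted p = 2.38e-07 by edgeR), to a mean of 0.254 CPM at D18, and by 6.33 without D18 replicate 2. At D32 it averaged 1.34 CPM, a rise against D18 of 2.37 (SE 0.46, adjusted p = 4.55e-04 by edgeR; 3.50 without D18 replicate 2). D32 against P-RPE (2.66 CPM) did not pass the test (-0.99, adjusted p = 0.0576 by edgeR), and passed with RLE size factors (-1.06, adjusted p = 0.0411 by edgeR) and when these groups were fitted alone (-0.93, adjusted p = 0.0351 by edgeR).

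Macrophage and microglia markers moved with much of this cluster. The 12 markers together gave between 73.8 and 81.9 CPM in MEF, between 19.3 and 21.1 CPM at D7, between 11.2 and 41.2 CPM at D18, between 168 and 291 CPM at D32 and between 1381 and 1496 CPM in P-RPE, and none was at 0 in a whole group. Csf1r, the receptor that macrophages need to survive, averaged 76.8 CPM at D32 and 684 CPM in P-RPE. Ccl6 and Ccl9 did not keep that order of groups, since their means were lower in P-RPE than in MEF. The 7 endothelial markers summed to 3.34 to 4.27 CPM at D7, 165 to 219 CPM at D32 and 628 to 733 CPM in P-RPE, and the T and NK cell markers to at most 3.46 CPM in any library, with 0 counts at D7. The part of these cells in the results was not tested.

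**Figure D3:**
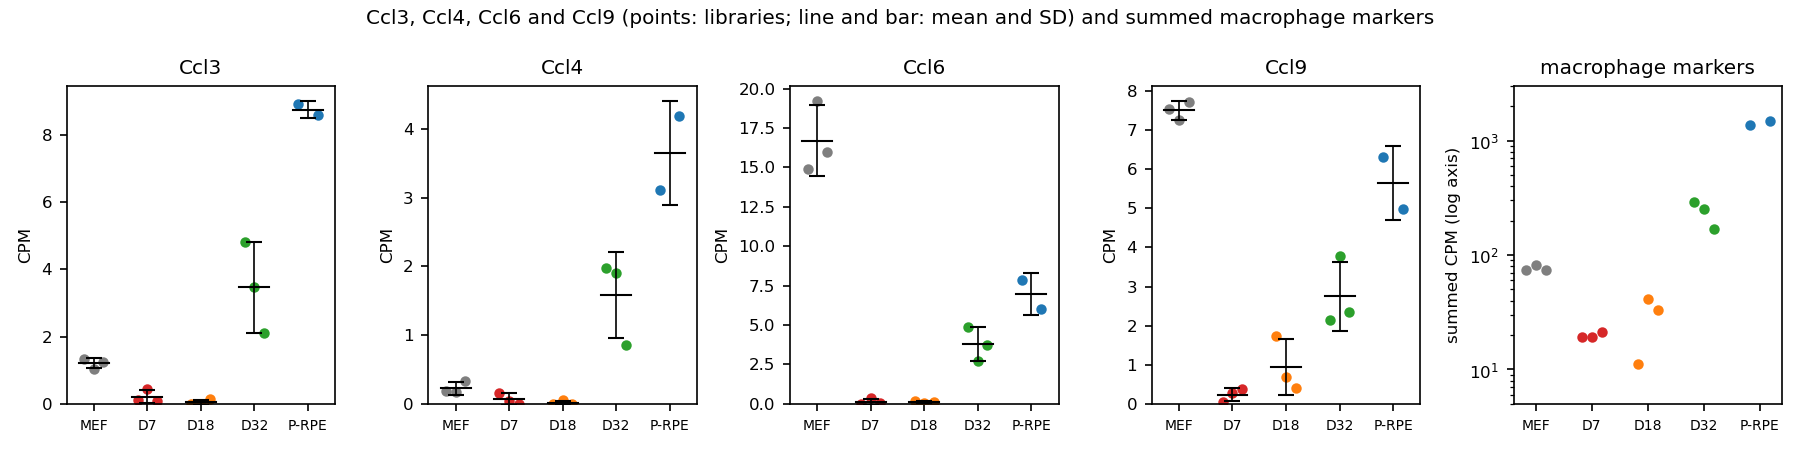
Ccl3, Ccl4, Ccl6 and Ccl9 in CPM (linear axes from 0; points are libraries, lines and bars are mean and SD) and, on a log axis, the summed CPM of 12 macrophage and microglia markers per library. The ligands are near 0 at D7 and, except Ccl9 (mean 0.945 CPM), at D18. They are higher at D32, where the marker sums are 168 to 291 CPM. Ccl6 and Ccl9 are highest in MEF.

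**Figure D4:**
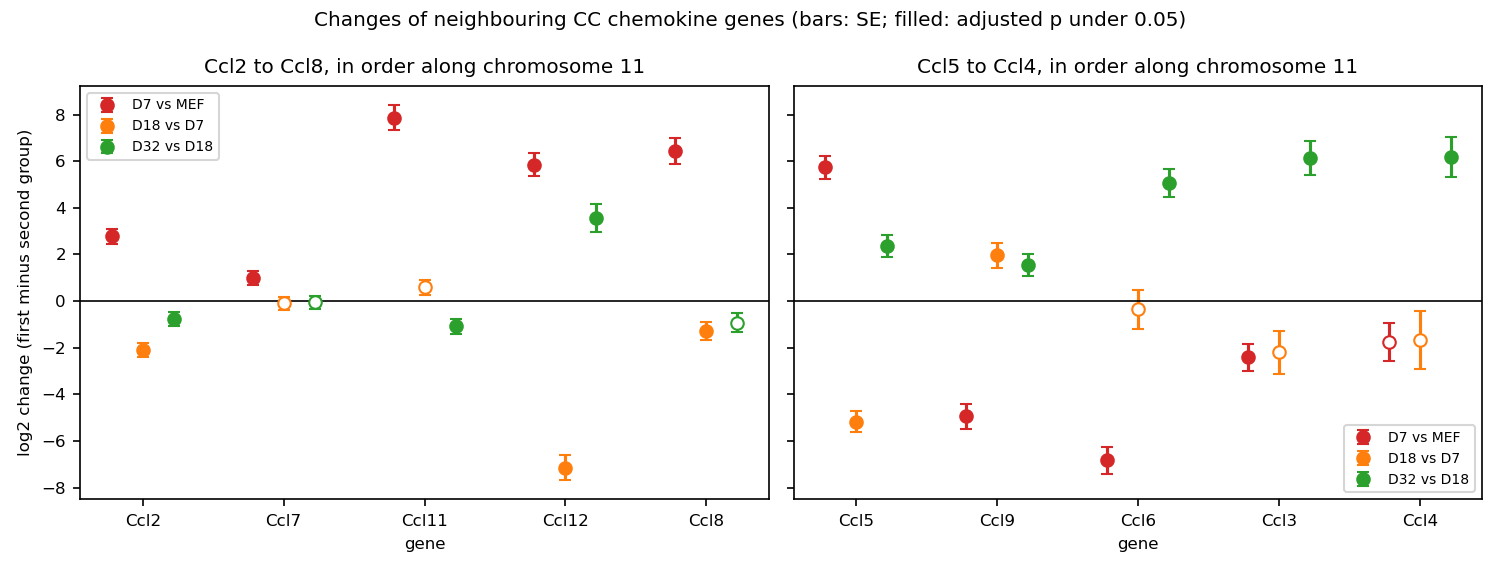
Log2 changes (points, with SE bars) of 5 neighbouring genes in each of 2 runs on chromosome 11, in gene order, for D7 minus MEF, D18 minus D7 and D32 minus D18; filled points had an adjusted p under 0.05. At D7 all genes of the Ccl2 to Ccl8 run are above 0, while in the Ccl5 to Ccl4 run Ccl5 alone is.

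The ligands of Cxcr2, which attract neutrophils, lie on chromosome 5 between 90759360 and 90905938 in the order Cxcl5, Cxcl3, Cxcl15, Cxcl1, Cxcl2. The 4 tested ones rose at D7 against MEF. Cxcl1 had 1.22, 1.49 and 1.30 CPM in MEF, 45.2, 52.9 and 40.8 CPM at D7, 57.7, 54.3 and 16.4 CPM at D18, 29.1, 33.8 and 37.6 CPM at D32, and 36.7 and 40.9 CPM in P-RPE. MEF lay below all other libraries, and D18 replicate 3 below the rest of the treated ones. Cxcl1 rose at D7 against MEF by 5.11 (SE 0.41, adjusted p = 2.70e-07 by edgeR) and was higher in D32 than in MEF by 4.64 (SE 0.41, adjusted p = 5.77e-07 by edgeR). D32 against D18 did not pass the test (-0.35, SE 0.33) and passed without D18 replicate 3 (-0.74, adjusted p = 4.46e-04 by edgeR). D32 against P-RPE did not pass (-0.21, SE 0.36).

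Cxcl2 had 0.183, 0 and 0 CPM in MEF, 3.64, 4.52 and 2.40 CPM at D7, 6.29, 1.28 and 0.171 CPM at D18, 7.16, 4.54 and 4.88 CPM at D32, and 12.5 and 17.3 CPM in P-RPE. P-RPE was highest, and the D18 libraries spread over most of the range below it. At D7 it was above MEF by 5.85 (SE 1.23, adjusted p = 0.00127 by edgeR), was higher in D32 than in MEF by 6.5 (SE 1.22, adjusted p = 4.78e-04 by edgeR) and higher in P-RPE than in MEF by 7.93 (SE 1.24, adjusted p = 7.40e-05 by edgeR). All MEF counts were in replicate 1, and without it the level was at least 84.0-fold higher at D7, 132-fold higher at D32 and 356-fold higher in P-RPE than in MEF, against the same floor. Without MEF replicate 2 the log2 changes were 5.26, 5.89 and 7.33. Cxcl3, whose promoter holds the same GGGAATTTCCC, stayed under 1 CPM in every group and had 0.887 CPM in its highest library, D32 replicate 3.

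Cxcl5 had 3.84, 5.06 and 4.25 CPM in MEF, 26.5, 36.1 and 20.8 CPM at D7, 107, 208 and 84.6 CPM at D18, 88.5, 160 and 366 CPM at D32, and 1.18 and 1.66 CPM in P-RPE. D18 and D32 overlapped and lay above D7, which lay above MEF, with P-RPE below all. Against MEF it rose at D7 by 2.66 (SE 0.51, adjusted p = 7.33e-04 by edgeR) and at D18 against D7 by 2.26 (SE 0.47, adjusted p = 0.00139 by edgeR). It was higher in D32 than in MEF by 5.54 (SE 0.56, adjusted p = 3.67e-06 by edgeR) and than in P-RPE by 7.17 (SE 0.75, adjusted p = 6.43e-06 by edgeR), or by 4.82 and 6.45 without D32 replicate 3. The lower call in P-RPE against MEF (-1.62, adjusted p = 0.0455 by edgeR) was lost whichever of their 5 libraries was left out, at -1.41 to -1.90. Cxcl15, known in mouse from lung epithelium, reached 1.25 CPM at D7 against 0.0577 CPM in MEF, a rise of 4.37 (SE 0.88, adjusted p = 5.96e-04 by edgeR), and fell at D18 against D7 by 2.74 (SE 0.75, adjusted p = 0.00585 by edgeR; by 4.14 without D18 replicate 1).

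Ppbp, a platelet chemokine that lies inside this run, had the opposite course at D7, with 0.0181 CPM at D7 and 6.14 CPM in MEF (adjusted p = 3.01e-05 by edgeR). The neutrophil markers summed to at most 0.457 CPM in any MEF, D7 or D18 library, 5.06 to 6.93 CPM at D32 and 13.0 to 13.6 CPM in P-RPE, with Ly6g at 0 from D7 onward and in P-RPE. Cxcr2, the receptor of these ligands, had too few counts for the test.

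Cxcl9, Cxcl10 and Cxcl11, the interferon-induced ligands of Cxcr3, lie side by side on chromosome 5 between 92321347 and 92365485. Cxcl10 had 0.487, 0.470 and 0.709 CPM in MEF, 29.9, 23.1 and 21.6 CPM at D7, 22.9, 13.4 and 6.07 CPM at D18, 11.3, 9.58 and 9.0 CPM at D32, and 10.8 and 16.5 CPM in P-RPE. MEF lay below every other library, and D7 lay above D32 and P-RPE. It rose at D7 against MEF by 5.47 (SE 0.45, adjusted p = 1.47e-07 by edgeR) and was higher in D32 than in MEF by 4.15 (SE 0.44, adjusted p = 1.82e-06 by edgeR). D18 against D7 did not pass (-0.81, adjusted p = 0.0545 by edgeR). It passed with library totals alone (-1.05, adjusted p = 0.0132 by edgeR), with the replicate block (-0.90, adjusted p = 0.0331 by edgeR) and without D18 replicate 1 (-1.35, adjusted p = 0.00175 by edgeR). Nor did D32 against D18 pass (-0.51, adjusted p = 0.223 by edgeR), except without D18 replicate 3 (-0.87, adjusted p = 0.00758 by edgeR); without D18 replicate 1 it was 0.03. Cxcl9 and Cxcl11 stayed under 1 CPM in every group, Cxcl9 with 0 counts in MEF. Exons of Cxcl10 overlap 133 bases of Art3 on the other strand, and the strand setting of the counting is not stated, so that part of the counts is uncertain; Art3 averaged 2.69 CPM at D7 and 0.208 CPM in MEF.

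Other interferon-response genes were read from a list of 20, of which 18 were tested. All 18 were called higher at D7 against MEF, 1 higher and 14 lower at D18 against D7, and 14 higher and 1 lower at D32 against D18. Of all genes, 28.5% were called higher at the first step, 29.2% higher and 27.4% lower at the second, and 29.9% higher and 26.1% lower at the third. The listed genes' median log2 changes were 3.94, -1.41 and 1.04, and those of all genes were 0.04, 0.00 and 0.07. Mx2, an interferon-induced antiviral GTPase, averaged 7.70 CPM at D7 and 0.0577 CPM in MEF, a rise of 6.98 (SE 0.40, adjusted p = 1.91e-09 by edgeR). It fell at D18 against D7 by 1.65 (SE 0.25, adjusted p = 5.15e-05 by edgeR) and rose at D32 against D18 by 1.26 (SE 0.25, adjusted p = 5.85e-04 by edgeR). Of the tested ligands, Ccl5, Ccl12 and Cxcl16 were called in the same direction as Mx2 at each of these 3 steps. Cxcl10 passed at the first step alone. The share of all genes called in this order was not counted. Ifnb1 and Ifng, which encode interferons, were at 0 counts in MEF and D7.

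Cx3cl1 and Cxcl16 are made as membrane-bound proteins that proteases can release. Cx3cl1, the ligand of Cx3cr1 on microglia and macrophages, lies on chromosome 8 and had 13.5, 12.4 and 13.0 CPM in MEF, 59.5, 44.8 and 72.0 CPM at D7, 58.5, 86.8 and 56.4 CPM at D18, 37.8, 48.1 and 37.1 CPM at D32, and 79.0 and 85.2 CPM in P-RPE. MEF lay below all other groups, and D32 lay below P-RPE. At D7 it was above MEF by 2.18 (SE 0.19, adjusted p = 1.75e-07 by edgeR) and fell at D32 against D18 by 0.71 (SE 0.18, adjusted p = 0.00351 by edgeR). It was lower in D32 than in P-RPE by 1.00 (SE 0.20, adjusted p = 5.87e-04 by edgeR) and higher in P-RPE than in MEF by 2.66 (SE 0.20, adjusted p = 1.84e-08 by edgeR). Its receptor Cx3cr1 averaged 4.35 CPM at D32, 20.9 CPM in P-RPE and at most 0.141 CPM in the other groups, and was lower in D32 than in P-RPE by 2.27 (SE 0.38, adjusted p = 1.43e-04 by edgeR).

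Cxcl16, which is both a ligand of Cxcr6 and a scavenger receptor, lies on chromosome 11 (70453983 to 70459984, minus strand). It had 3.75, 3.54 and 3.04 CPM in MEF, 14.3, 16.2 and 16.3 CPM at D7, 9.07, 8.03 and 6.47 CPM at D18, 15.4, 17.3 and 16.3 CPM at D32, and 26.8 and 31.1 CPM in P-RPE. D7 and D32 overlapped, D18 lay below both, and P-RPE lay above all. Against MEF it rose at D7 by 2.18 (SE 0.16, adjusted p = 2.23e-08 by edgeR), fell at D18 against D7 by 0.99 (SE 0.15, adjusted p = 4.27e-05 by edgeR) and rose at D32 against D18 by 1.05 (SE 0.15, adjusted p = 2.43e-05 by edgeR). D32 was below P-RPE by 0.83 (SE 0.16, adjusted p = 4.72e-04 by edgeR). Cxcl16 shares 552 exon bases with Zmynd15 on the other strand, whose means were 0.908, 5.31, 1.17, 2.95 and 7.42 CPM in MEF, D7, D18, D32 and P-RPE; without a stated strand setting the reads of the pair cannot be told apart.

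Ccl27a, Ccl28 and Ccl25 are epithelial ligands known from skin, mucosa, and gut with thymus. Ccl27a averaged 6.32 CPM at D18 and 2.64 CPM at D7, a rise of 1.26 (SE 0.18, adjusted p = 2.68e-05 by edgeR), and 7.96 CPM in P-RPE against 3.51 CPM in MEF, higher by 1.18 (SE 0.19, adjusted p = 6.29e-05 by edgeR). Its calls at D32 against MEF (0.54) and at D32 against P-RPE (-0.64) were each lost without 1 library, at 0.44 without MEF replicate 2 or 0.52 without MEF replicate 1, and at -0.60 without P-RPE replicate 1. Ccl27a overlaps Il11ra1 on the other strand by 8 exon bases and has a near-identical copy, Ccl27b, listed with 0 counts, so its counts are uncertain. Il11ra1 averaged 36.5, 56.3, 138, 112 and 152 CPM in MEF, D7, D18, D32 and P-RPE. Ccl28 averaged 1.73 CPM at D18, 0.822 CPM at D7 and 0.830 CPM at D32, higher at D18 than at D7 by 1.06 and lower at D32 than at D18 by 1.05 (adjusted p = 0.0162 and 0.018 by edgeR). Both calls were lost without D18 replicate 1 (0.96 and -0.95), the first also without D7 replicate 1 (0.97) and the second without D32 replicate 2 (-0.81). Ccl25, which overlaps Elavl1 by 204 exon bases, had group means of 5.08 to 7.0 CPM and passed the test in none of the 6 comparisons. Without D32 replicate 2 it was called higher at D32 than at D18 (0.47, adjusted p = 0.0441 by edgeR) and than in MEF (0.51, adjusted p = 0.0287 by edgeR). Elavl1, on the other strand, averaged 107, 68.3, 51.8, 61.0 and 46.9 CPM in MEF, D7, D18, D32 and P-RPE. Without a stated strand setting, the share of Ccl25 counts that came from Elavl1 is not known.

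The remaining members were low. Ccl17 and Ccl22, dendritic cell ligands of Ccr4, stayed under 1 CPM in every group and were called higher at D32 against D18. Ccl24, Ccl1, Ccl20, Xcl1, Cxcl3, Cxcl11, Cxcl17 and Ccl19 had counts in some libraries but too few to test. Ccl26, Ccl21a, Ccl21b, Ccl21d and Ccl27b had 0 counts in all libraries; the Ccl21 genes and Ccl27b belong to families of near-identical copies, whose shared reads the counting may have dropped.

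D32 cells were set against P-RPE, the tissue they are made to resemble. Of 26 tested members, 5 were called higher and 5 lower in D32, where 27.1% and 26.8% of all genes were (53.9% in either direction), and the split was 5 and 3 with library totals alone. The median log2 change of members was -0.65, and that of all genes was 0.02. The 5 higher were Cxcl5, Cxcl14, Ccl7, Ccl2 and Cxcl12, with the values above. Summed fibroblast markers lay between 7217 and 11122 CPM at D32 and were 1206 and 1477 CPM in P-RPE. Lum, among these markers, went the other way, with means of 89.5 CPM at D32 and 160 CPM in P-RPE. The part of fibroblast-like cells in the 5 higher calls was not tested. The 5 lower were Ccl12, Ccl3, Cx3cl1, Cxcl16 and Ccl27a. The Ccl3 call (-1.33, SE 0.51, adjusted p = 0.0387 by edgeR) was lost without D32 replicate 2 or 3 or without either P-RPE library, at -1.08 to -1.37. It was also lost with library totals alone (-1.11, adjusted p = 0.0838 by edgeR), with no filter on low counts (-1.28, adjusted p = 0.0514 by edgeR) and with the replicate block (-1.25, adjusted p = 0.0832 by edgeR). Without P-RPE replicate 1, 3 members were called lower. When these groups were fitted alone, 17 members were called, 11 of them lower. Of the 5 members higher in D32, 4 were called lower in P-RPE than in MEF. Cxcl12 did not pass there, except when P-RPE and MEF were fitted alone (-0.31, adjusted p = 0.0013 by edgeR). Both comparisons use the same P-RPE libraries.

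**Figure D5:**
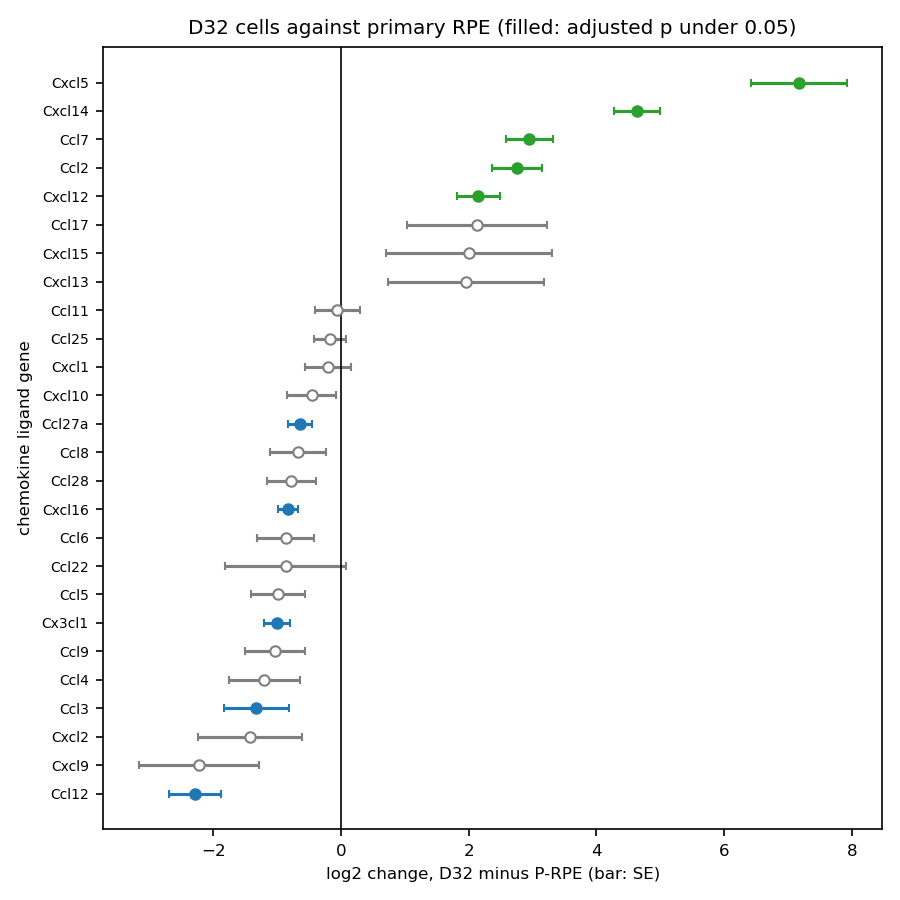
Log2 change of D32 minus P-RPE (x axis, points with SE bars) for the 26 tested ligands, ordered by size; filled points had an adjusted p under 0.05. Cxcl5 (7.17) and Cxcl14 (4.63) are farthest to the right, and Ccl12 (-2.29) is the lowest.

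The receptors and other partners of the ligands were read from lists. Of 19 chemokine receptor genes, 12 were tested, and 2 were called higher and 2 lower at D7 against MEF, 7 higher and 1 lower at D32 against D18, and 4 lower at D32 against P-RPE. The shares of all genes called higher and lower were 28.5% and 26.5%, 29.9% and 26.1%, and 27.1% and 26.8% in these comparisons. The median log2 changes of those tested were -0.22, 2.50 and -1.34. Ccr1, the receptor of Ccl3, Ccl6 and Ccl9, averaged 0.0338 CPM at D7 and 1.5 CPM in MEF, a fall of 5.39 (SE 0.61, adjusted p = 7.03e-06 by edgeR), and had 0 counts at D18. Of 6 atypical receptors, which bind ligands without G protein signalling, 4 were called higher and 1, Ackr3, lower at D7 against MEF. Ackr4, a scavenger of Ccl19, Ccl21 and Ccl25, was higher in D32 (9.33 CPM) than in P-RPE (1.91 CPM) by 2.28 (SE 0.46, adjusted p = 7.43e-04 by edgeR).

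A list of 32 cytokines, receptors, NF-kappaB feedback genes and related genes had 30 that were tested. At D7 against MEF 18 of them were called higher and 2 lower, where 28.5% and 26.5% of all genes were. Their median log2 change was 0.98, and that of all genes was 0.04. At D18 against D7 the calls were 8 higher and 8 lower, and at D32 against D18 they were 9 higher and 8 lower, shares of the listed genes near those of all genes (29.2% and 27.4%, then 29.9% and 26.1%). Il1b had 0 counts in MEF and 3 at D7. Mean CPM in MEF and at D7 were 0.154 and 0.0707 for Tnf, 1.12 and 0.676 for Il6, and 0.241 and 0.226 for Il1a. Means of the cytokines Lif (23.3 and 57.3 CPM) and Csf3 (0.202 and 2.69 CPM) were higher at D7, as was that of Icam1 (15.8 and 129 CPM). Csf1, the most abundant gene of the list, averaged 700 CPM in MEF and 224 CPM at D7. Tnf had 16 counts in MEF and 9 at D7. These means are given without a test. Of 8 glycan and protease partners, 4 were called higher and 1 lower at D7 against MEF, where 28.5% and 26.5% of all genes were. Mmp9, a gelatinase that can cut several chemokines, averaged 129 CPM at D7 and 0.692 CPM in MEF, a rise of 7.54 (SE 0.26, adjusted p = 1.78e-11 by edgeR), and fell at D18 against D7 by 5.49 (SE 0.23, adjusted p = 1.42e-10 by edgeR). Mmp2, a gelatinase that can inactivate Cxcl12, averaged 1680 CPM at D7 and 416 CPM in MEF, a rise of 2.01 (SE 0.31, adjusted p = 8.66e-05 by edgeR).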

How the data were processed

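Total RNA from 14 mouse libraries was measured by RNA sequencing; per the labels' protocols, RNA was taken with TRIzol, NEBNext Ultra libraries were read from each end for 150 bases. The authors deposited counts as whole numbers, a row for each gene symbol. Named in the submitters' processing notes are Subread with featureCounts, STAR 2.7.11a, limma 3.58.1 and edgeR 4.0.16, beside the builds GRCm38, mm10 and GRCh38. How strand, read pairs and reads with several matches were counted is not given in the sources used here. Of the counts between 1 and 10, 69.6% to 76.7% per library were even, as when the 2 ends of a pair are counted singly, and counting intervals are then too narrow. A human table of 10 columns was not used here.

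Groups came from the sample titles. Genes were kept by filterByExpr of edgeR 4.0.16 in R 4.3.3, which left 20562. One quasi-likelihood model with 5 group means, TMM scaling and robust dispersions gave 6 contrasts, with Benjamini-Hochberg adjustment over all genes tested and a threshold of 0.05. The SE is the log2 change over the square root of F. For a group at 0 counts the fold is a bound against 3 counts over the group; with 1 to 3 counts a ratio with an exact 95% interval is given. The model was tested on simulated data. Coordinates, exon lengths and overlaps are from GENCODE vM21 on GRCm38, in which 35 members matched 1 gene each.

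Members with a group mean of at least 10 CPM are given by library, those of 1 to 10 CPM by group means, and those under 1 CPM by name; of other lists, the 2 called genes with the largest change each way, the most abundant gene and defining markers could be named. The members and lists were chosen with earlier results of these data known. Same-numbered replicates did not deviate together (correlations of -0.0967 to 0.0953). Other settings tried were DESeq2 1.42.0, a fit of the 2 groups alone, a block for the replicate number, a filter at 5 CPM or none, scaling by library totals or by RLE, and the omission of single libraries.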

Additional observations from a re-analysis of the deposited data

How the results depend on the processing

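Of 304 recomputed counts of called genes, 293 stayed within 1.5 times the reported count. For D32 against P-RPE, with 10 members called and 5 of them lower, 17 were called when the 2 groups were fitted alone, and 3 were called lower with library totals alone, 3 with no filter, 11 in the 2 groups alone and 8 with DESeq2; without single libraries 3 to 7 were. Without single libraries, 4 to 8 members were higher at D18 against D7, 3 to 9 lower at D32 against D18 and 3 to 4 lower in P-RPE against MEF. Of 2307 recomputed log2 changes of single genes, 69 lost and 45 gained a call and 34 changed sign, none of the last called in the reported fit; the cause was not tested. With no filter on low counts, calls were lost for Cxcl13 and Ccl2 at D32 against D18, Ccl7 and Ccl27a at D32 against MEF, Ccl27a at D32 against P-RPE, and Cxcl5 and Ccl28 in P-RPE against MEF, beside those of Cxcl12 and Ccl3. With library totals alone they were lost for Cxcl13 and Ccl2 at D32 against D18, Ccl28 at D18 against D7, Ccl27a and Ccl3 at D32 against P-RPE and Cxcl5 in P-RPE against MEF, in the groups compared alone for Cxcl13 and Ccl2 at D32 against D18, and with the replicate block for Cxcl5 in P-RPE against MEF.

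Log2 changes of the other sign were, with library totals alone, 0.17 (Ccl11), 0.06 (Ccl25) and 0.02 (Cxcl1) for D32 against P-RPE, -0.01 for Cx3cl1 at D18 against D7, 0.05 for Ccl7 at D32 against D18, and 0.10 for Ccl2 at D32 against MEF. For Ccl25 at D18 against D7 they were 0.01 with RLE size factors and 0.01 with DESeq2. For Ackr3 at D32 against MEF they were -0.04 with RLE size factors, -0.05 with no filter, -0.05 in the 2 groups alone, -0.04 with DESeq2 and -0.02 with the replicate block. With the block they were also 0.09 for Ccl11 at D32 against P-RPE and 0.02 for Ccl7 at D32 against D18. Leaving out 1 library gave ranges that cross 0 for uncalled changes of Ccl6 at D18 against D7 (-0.88 to 1.99), Cxcl5 (-0.10 to 1.08), Cxcl15 (-1.18 to 0.79), Cxcl10 (-0.87 to 0.03) and Ccl7 (-0.38 to 0.27) at D32 against D18, and Cxcl1 (-0.39 to 0.27), Cx3cl1 (-0.04 to 0.34), Ccl7 (-0.46 to 0.23), Ccl25 (-0.17 to 0.05) and Cxcl2 (-2.26 to 0.10) at D18 against D7. The others were Ccl11 (-0.23 to 0.04) and Ccl25 (-0.33 to 0.05) at D32 against P-RPE, Ccl25 at D7 against MEF (-0.06 to 0.13) and Ackr3 at D32 against MEF (-0.26 to 0.16).

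The reported fit did not pair samples by replicate number, and the labels do not say whether same-numbered replicates shared a culture. With the replicate number as a block, 19, 14, 15, 21, 9 and 19 members were called in D7 against MEF, D18 against D7, D32 against D18, D32 against MEF, D32 against P-RPE and P-RPE against MEF. At this depth 13 of the 39 members had too few counts to test.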
